A study of Homo sapiens with 8 samples.

Results

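The 47 genes described here encode the machinery of synaptic vesicles and regulated exocytosis: vesicle membrane proteins, synapsins, synaptotagmins, SNARE proteins and the factors that dock, prime and recycle vesicles. They were taken as a list by gene name, drawn up with earlier results of these data known, out of 34788 genes to which the reads could be summed. Of the 47, 41 passed the filter on low counts and were tested among 15991 genes. The study asked which genes depend on FEZF1, a zinc finger transcription factor, in Ewing sarcoma, a tumor of bone and soft tissue driven by the fusion protein EWSR1-FLI1. RNA was sequenced from A673, an established Ewing sarcoma cell line, engineered to express the tetracycline repressor and a doxycycline-inducible shRNA against FEZF1 (A673/TR/shFEZF1). All 8 cultures carried both constructs and were grown with the selection antibiotics. Of these, 4 were untreated controls and 4 received doxycycline at 1 µg/mL for 72 h; each group held the bulk population and the clones 3, 5 and 6, so that the cultures formed 4 pairs of 1 origin each. Each origin was cultured without and with the drug 1 time, all from 1 cell line, and no culture without the shRNA that received doxycycline was analysed here, so FEZF1 knockdown, other effects of the shRNA and effects of the drug cannot be told apart.

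In neurons, neurotransmitter is stored in synaptic vesicles, whose fusion with the plasma membrane is carried out by SNARE proteins: a VAMP protein on the vesicle pairs with a syntaxin and a SNAP protein on the target membrane. Synaptotagmins couple the fusion of docked vesicles to calcium, Rab3 proteins and their effectors tether vesicles, UNC13 and CADPS proteins prime them, and NSF with its SNAP adaptors takes the spent SNARE complexes apart. Many of these families have both a neuronal member and a relative that serves exocytosis in most cell types, such as VAMP2 and VAMP3, SNAP25 and SNAP23, or STX1A and STX4.

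FEZF1, the target of the shRNA, was at 96.4, 70.5, 107 and 74.4 CPM (the count of a gene scaled to library size after TMM) in the bulk, clone 3, clone 5 and clone 6 control cultures and at 60.6, 43.0, 60.8 and 36.4 CPM in the doxycycline cultures of the same order. Every doxycycline culture lay below every control culture, and FEZF1 was lower in 4 of 4 pairs (exact permutation test over the 8 cultures, which does not use the pairing, 2-sided p = 0.02857, the smallest possible with 4 against 4; exchange within 4 pairs could not give less than 0.125). In the edgeR fit with the origin of each pair as a block, its log2 fold change was -0.81 (standard error 0.07, adjusted p = 0.00595), and without the replicate block the adjusted p was 0.290. The libraries held between 26719886 and 42422421 assigned reads, of which 89.9% to 91.1% belonged to transcripts that could be given a gene symbol. The 7 Ewing sarcoma markers examined (CD99, NKX2-2, NR0B1, PRKCB, STEAP1, LIPI and BCL11B) were expressed in every culture, with a summed level of 2041 to 4296 TPM (a level corrected for transcript length as well as library size) in the controls and 2020 to 4483 TPM with doxycycline. Markers of neurons summed to 3.02 to 4.85 TPM in the controls and 3.46 to 6.66 TPM with doxycycline (6 genes), and markers of glia to 0.281 to 1.35 TPM and 0.373 to 0.98 TPM (4 genes), although for the neuronal markers RBFOX3 and ELAVL4 and the glial marker MBP most reads could not be matched. Of the markers of blood cells, PTPRC was at or near 0, CD3E had no matched read and HBB was at 16.7 to 36.5 TPM. Fibroblast markers, COL1A1 and COL1A2 above all, summed to 74.7 to 920 TPM in the controls and 114 to 914 TPM with doxycycline, ranges that overlapped. The fibroblast markers DCN and LUM reached at most 6.32 and 1.55 TPM.

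The list as a whole was expressed at very different levels. In the control cultures 15 of the 47 genes had a mean of at least 10 TPM, 14 lay between 1 and 10 TPM, and 18 lay under 1 TPM. These 18 include STX1A, whose reads were almost all left unmatched. The highest were SNAP23, at 114 ± 10.6 TPM (SD, n = 4), VAMP3 at 107 ± 7.01 TPM, SYPL1 at 91.9 ± 11.1 TPM, NAPA at 82.5 ± 10.8 TPM and CADPS2 at 54.3 ± 8.39 TPM. SNAP23, VAMP3, SYPL1 and NAPA are broadly expressed members of their families, and SNAP23 and VAMP3, like SYPL1 and NAPA, differed by less than their SDs, while VAMP3 and SYPL1, and NAPA and CADPS2, lay further apart. Their neuronal relatives were lower: SYP was at 8.56 ± 1.21 TPM against SYPL1 above, SNAP25 at 6.10 ± 0.849 TPM against SNAP23, and VAMP2 at 32.3 ± 1.65 TPM against VAMP3. SYT1, the main calcium sensor of fast release, reached 27.5 ± 4.15 TPM, and SV2A, a vesicle glycoprotein, 28.5 ± 3.32 TPM. SYN1, a synapsin that clusters vesicles, was at 1.81 ± 0.314 TPM.

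**Figure D1:**
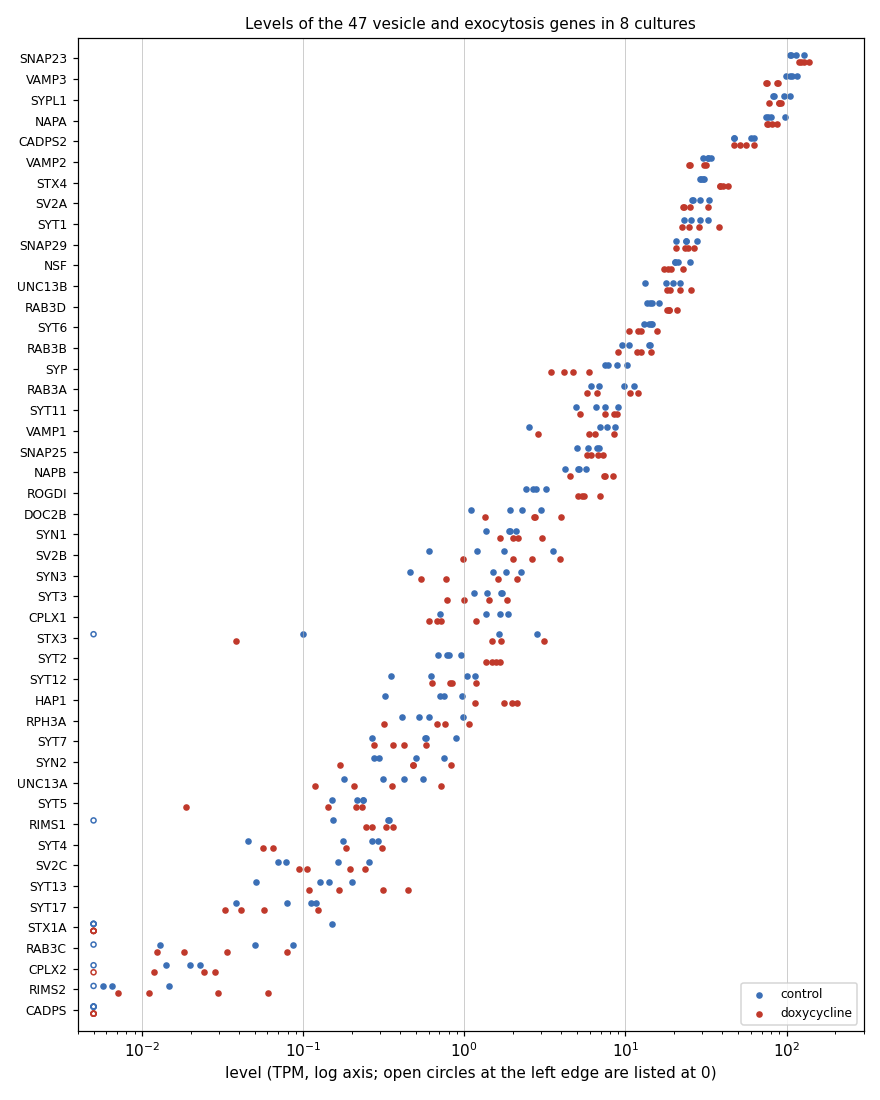
Level of each of the 47 genes in the 8 cultures (TPM, log axis), 1 point per culture, ordered by the mean of the 4 controls (blue); doxycycline cultures are red and values listed at 0 are drawn as open circles at the left edge. SNAP23, VAMP3, SYPL1 and NAPA lie at the top, while SYP, SNAP25 and SYN1 lie lower and STX1A and CADPS are at or near 0. For STX1A 0.105% of the reads were matched, so its points do not show its level.

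Some levels are known only in part, because reads on predicted transcripts could often not be given a symbol. Set against the authors' mean for the same gene, 6 of the 47 genes had under 80% of their reads matched: STX1A (0.105%), STX3 (6.25%), SYT6 (44.6%), RIMS1 (68.0%), SYT7 (74.0%) and ROGDI (74.3%). STX1A, the neuronal syntaxin, and STX3 were therefore hardly measured here, and their values say nothing about the level of these genes. The 6 genes that did not pass the filter were STX1A, with 0 to 0.181 CPM, SYT17 (0.0332 to 0.210 CPM), CPLX2 (0 to 0.0841 CPM), RAB3C (0 to 0.483 CPM), RIMS2 (0 to 0.332 CPM) and CADPS. No read of CADPS, a priming factor of dense-core vesicles, was assigned in any library, where 3 reads would correspond to 0.0759 to 0.126 CPM depending on the library. Its relative CADPS2 was among the 5 highest genes of the list.

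The comparison of doxycycline with control cultures, with the origin of each pair as a block, called 8 of the 41 tested genes (quasi-likelihood test of edgeR, with a threshold of 0.05 on the p-value after Benjamini-Hochberg adjustment over all 15991 genes). SYP and VAMP3 were lower, and RAB3D, SYT2, ROGDI, STX4, SV2B and HAP1 were higher. The 8 are 19.5% of the members tested, and 7.62% of all genes were called by the same rule, 3.72% higher and 3.90% lower. The median log2 fold change was 0.03 over the members and 0.00 over all genes, and the median of its absolute size was 0.24 and 0.15. Of the 41 members, 17 had the doxycycline value on the same side of the control in 4 of 4 pairs, 11 higher and 6 lower, as did 33.3% of all genes tested. The 4 control and 4 doxycycline cultures did not overlap for 7 members (5 above and 2 below the controls), or 17.1%, against 4.95% of all genes tested. SYP, SYT2, ROGDI and HAP1 also stand in the study's own list of changed genes, which was made from these same libraries, so their calls are not independent of it. The members were chosen with earlier results of these data known. The shares above are therefore no test of whether these genes change more often than others.

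The calls depend on the pairing and on the number of pairs. Without the replicate block, 0 of the 41 members were called by edgeR, and 0.00625% of all genes (1 gene) were called. The adjusted p-values of the 8 genes were 0.238 to 0.997. An unadjusted p under 0.05 was found for 9 members and for 1155 of all 15991 genes tested. DESeq2 called 9 members with the block (13.8% of all genes) and 5 without it (1.43% of all genes): SYT2, SYP, ROGDI, HAP1 and RAB3D. When 1 pair was left out, 4 members were called without the bulk pair (4.44% of all genes), 4 without clone 3 (2.89%), 1 without clone 5 (1.09%) and 1 without clone 6 (1.40%), and SYP was called each time. With curated RefSeq transcripts alone, 4 members were called (3.29% of all genes): SYP, RAB3D, VAMP3 and ROGDI. SYT2 was not tested in that setting.

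**Figure D2:**
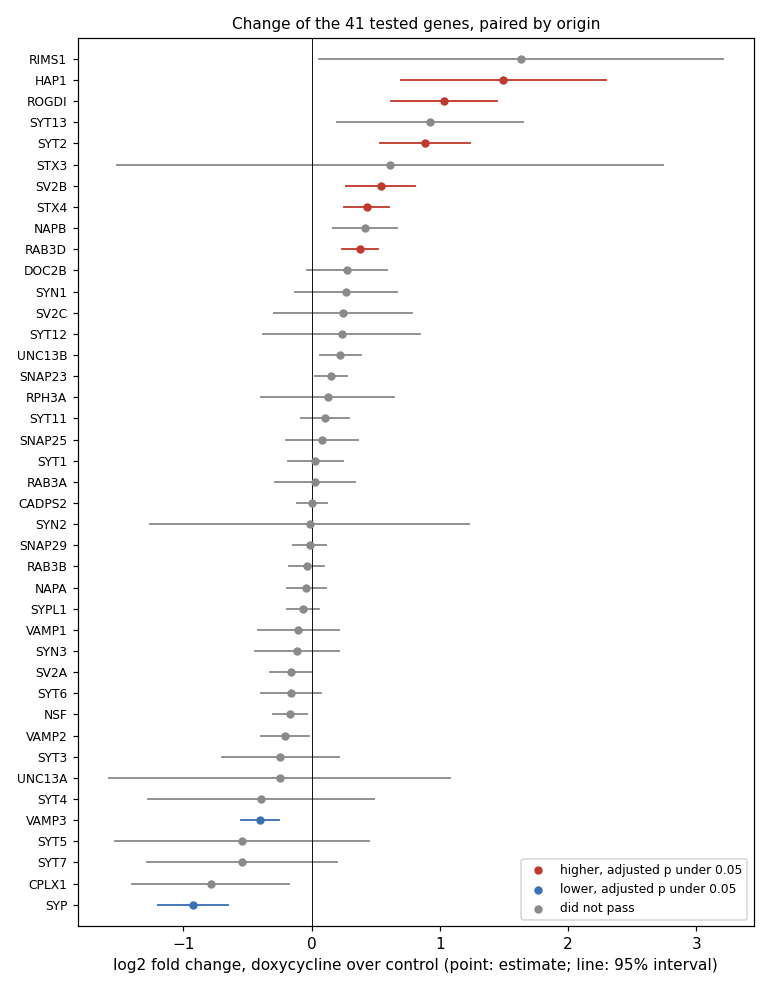
Log2 fold change of each tested gene, doxycycline over control, from the paired edgeR fit (point) with its 95% interval (line), sorted by size. The 2 genes that passed the test as lower are blue (SYP and VAMP3), the 6 that passed as higher are red, and the other 33 are gray.

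For 37 of the 47 genes RefSeq gave the sequence before the transcription start (GRCh38.p14). The 250 bases upstream of the start are shown for SYP and VAMP3, the genes that fell, and for RAB3D and ROGDI, members that rose and that, like SYP and VAMP3, have 1 start in the table. They read 5′ to 3′ on the strand of the gene, and capitals mark matches on either strand to the GC box GGGCGG and, in VAMP3, to the ETS site CCGGAAGT, which there adjoins a GC box.
SYP, chrX:49200194-49200443, minus strand: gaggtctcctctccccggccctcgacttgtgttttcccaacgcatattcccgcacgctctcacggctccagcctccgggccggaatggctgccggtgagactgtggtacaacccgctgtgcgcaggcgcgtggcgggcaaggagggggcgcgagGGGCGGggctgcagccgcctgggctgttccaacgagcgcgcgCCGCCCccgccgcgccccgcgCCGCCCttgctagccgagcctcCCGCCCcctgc
VAMP3, chr1:7771046-7771295, plus strand: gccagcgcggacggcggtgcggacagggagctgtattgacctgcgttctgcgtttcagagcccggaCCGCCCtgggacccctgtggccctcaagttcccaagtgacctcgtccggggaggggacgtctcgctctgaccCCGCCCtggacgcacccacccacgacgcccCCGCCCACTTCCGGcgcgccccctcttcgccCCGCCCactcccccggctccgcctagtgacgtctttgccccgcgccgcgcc
RAB3D, chr19:11339658-11339907, minus strand: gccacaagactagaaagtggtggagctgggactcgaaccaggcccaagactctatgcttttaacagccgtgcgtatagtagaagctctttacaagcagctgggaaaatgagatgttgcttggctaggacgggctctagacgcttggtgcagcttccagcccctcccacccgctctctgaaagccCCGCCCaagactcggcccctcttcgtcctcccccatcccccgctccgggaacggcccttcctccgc
ROGDI, chr16:4802634-4802883, minus strand: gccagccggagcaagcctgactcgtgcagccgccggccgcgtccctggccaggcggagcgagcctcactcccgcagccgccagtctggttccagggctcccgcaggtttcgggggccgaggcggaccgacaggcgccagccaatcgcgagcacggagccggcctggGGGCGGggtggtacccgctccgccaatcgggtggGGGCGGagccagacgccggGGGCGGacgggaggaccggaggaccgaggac
SYP and VAMP3 have 4 matches each to the GC box, ROGDI has 3 and RAB3D has 1, so the letters occur before genes of both directions. A GC box was found for 27 of the 37 members (73.0%) and for 46.2% of the 27305 genes in the table, in any of their windows of the same length. The members' windows were richer in G and C, with a median of 68.0% against 59.2% over all genes, each gene counted by its richest window. The ETS site was found in VAMP3 alone of the 37, and in 4.13% of all genes. A pair of adjoining GGAA units (GGAAGGAA), the repeat at which EWSR1-FLI1 binds in longer runs, occurred in 2 members, SYN2 and UNC13B, neither of which was called, and in 3.76% of all genes. TTCAGCACC, the left part of the RE1 element bound by the neuronal repressor REST, occurred in SYN1 alone and in 0.355% of all genes. The E-box CACGTG was present in 5 members, STX4 among them (7.73% of all genes), and TATAAA in 3, of which SV2B and HAP1 were called (13.0% of all genes).

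Among the vesicle membrane proteins, SYP fell, SV2B rose and 3 genes did not pass the test. SYP (synaptophysin, an abundant integral protein of synaptic vesicles; chrX:49187815-49200193) was at 13.3, 10.5, 12.6 and 11.3 CPM in the control cultures of the bulk population and clones 3, 5 and 6. In the doxycycline cultures of the same order it was at 7.80, 4.65, 6.67 and 6.31 CPM. Each doxycycline value lay below every control value, and clone 3 was the lowest in both groups. The log2 fold change was -0.93 (standard error 0.12, adjusted p = 0.00833), or 0.527 times the control. SYPL1, the synaptophysin relative of non-neuronal tissues, was at 119.6 ± 15.5 CPM and 114 ± 10.9 CPM (SD, n = 4 each), with a log2 fold change of -0.07 (95% interval -0.19 to 0.06, adjusted p = 0.483). The CPM of SYP relative to that of SYPL1 in the same culture was 0.113, 0.0959, 0.116 and 0.0799 in the controls and 0.0703, 0.0415, 0.0649 and 0.0490 with doxycycline. The ratio was lower in every doxycycline culture than in any control, but it restates the fall of SYP beside a gene that was not called.

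SV2 proteins are transporter-like glycoproteins of the vesicle membrane. SV2B (chr15:91099588-91302565) was at 23.2, 4.22, 8.67 and 12.6 CPM in the controls and 26.2, 6.66, 14.2 and 19.9 CPM with doxycycline. It was higher in 4 of 4 pairs, but the groups overlapped widely, because the bulk control alone lay above 3 of the 4 doxycycline cultures. Its log2 fold change was 0.54 (standard error 0.12, adjusted p = 0.0370), and this is the 1 member called in both the doxycycline and the origin comparison. The reads of SV2B were divided among 8 transcripts, and the share of the leading one ran from 0 to 91.3% between cultures. In edgeR with curated transcripts alone its adjusted p was 0.469. SV2A had a log2 fold change of -0.16 (95% interval -0.32 to 0.01, adjusted p = 0.215), and SV2C, at 0.441 to 1.57 CPM, one of 0.25 (-0.29 to 0.78, adjusted p = 0.609).

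None of the 3 synapsins, which tether vesicles to each other and to actin, was called by edgeR or DESeq2, and none had an unadjusted p under 0.05. SYN1 was at 3.67, 3.56, 3.63 and 2.65 CPM in the controls and 3.84, 3.63, 5.71 and 3.32 CPM with doxycycline. It was higher in 4 of 4 pairs, with overlapping groups and a log2 fold change of 0.27 (95% interval -0.13 to 0.67, adjusted p = 0.392). SYN2 lay under 1.49 CPM in all cultures, and the interval of its change, -1.26 to 1.23, was too wide to exclude a doubling or its reverse.

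Of the 12 synaptotagmins and related sensors (DOC2B among them), 11 were tested and SYT2 alone passed. SYT2 (a fast calcium sensor of release in spinal cord, brain stem and motor terminals; chr1:202590596-202710454) was at 3.70, 3.97, 4.10 and 3.38 CPM in the controls and 6.33, 7.50, 6.41 and 7.87 CPM with doxycycline. All doxycycline values lay above all control values. The log2 fold change was 0.89 (standard error 0.15, adjusted p = 0.0189). The reads of SYT2 were divided among 6 transcripts, and the share assigned to the leading one ran from 0 to 96.7% between cultures, so the sum over the gene is the measure used. The leading transcript, a predicted one, was at 1.55 ± 1.80 CPM in the controls and 6.32 ± 1.25 CPM with doxycycline (SD, n = 4 each). The second, a curated one, went the other way, from 1.33 ± 1.54 CPM to 0 CPM. SYT1, which serves the same step in the forebrain and was far higher per length, was at 76.8, 71.1, 66.3 and 94.5 CPM and 101, 67.1, 63.5 and 86.2 CPM, with overlapping groups. Its log2 fold change was 0.03 (95% interval -0.18 to 0.24, adjusted p = 0.878).

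The other synaptotagmins did not pass. SYT11, a synaptotagmin that does not bind calcium, was at 21.7 ± 5.36 CPM and 23.3 ± 5.38 CPM (SD, n = 4 each), with a log2 fold change of 0.10 (-0.09 to 0.29, adjusted p = 0.490). SYT13 was at 0.430, 0.158, 0.653 and 0.402 CPM in the controls and 1.29, 0.320, 0.963 and 0.547 CPM with doxycycline. The doxycycline culture was the higher in each of the 4 pairs, all at low levels, and the log2 fold change was 0.92 (0.19 to 1.65, adjusted p = 0.119). SYT7, the high-affinity sensor of slow release, had one of -0.54 (-1.28 to 0.19, adjusted p = 0.345) at 0.365 to 1.92 CPM, with part of its reads not matched.

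Among the 8 SNARE genes tested, VAMP3 fell and STX4 rose, and the other 6 did not pass. VAMP3 (cellubrevin, the vesicle SNARE of recycling endosomes and constitutive exocytosis; chr1:7771296-7781432) was at 123, 134, 126 and 149.8 CPM in the controls and 103, 90.0, 94.1 and 118 CPM with doxycycline. The groups did not overlap, and clone 3 fell from the second highest control to the lowest doxycycline value. The log2 fold change was -0.40 (standard error 0.06, adjusted p = 0.0161). STX4 (a plasma membrane syntaxin of most cell types; chr16:31033095-31040168) was at 21.8, 22.7, 24.3 and 23.6 CPM in the controls and 29.5, 28.9, 30.5 and 35.8 CPM with doxycycline. Every doxycycline value exceeded every control value, and clone 6 was the highest with doxycycline. Its log2 fold change was 0.43 (standard error 0.08, adjusted p = 0.0209).

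VAMP3 and STX4 can join in 1 SNARE complex with SNAP23, and here VAMP3 fell and STX4 rose. The CPM of STX4 relative to that of VAMP3 was 0.177, 0.169, 0.192 and 0.158 in the controls and 0.287, 0.321, 0.325 and 0.305 with doxycycline. This pair was set side by side after its values were seen, so the ratio is given with no test. SNAP23 was at 143, 142, 143 and 176 CPM and 148, 157, 171 and 196 CPM, higher in 4 of 4 pairs with overlapping groups. It did not pass the test, with a log2 fold change of 0.15 (95% interval 0.03 to 0.28, adjusted p = 0.132).

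The neuronal SNARE genes did not pass either. VAMP2, the main vesicle SNARE of synapses, was at 36.9, 39.6, 42.7 and 37.8 CPM in the controls and 36.0, 29.2, 38.2 and 33.0 CPM with doxycycline. The groups overlapped, although the doxycycline culture was the lower of each pair, and the log2 fold change was -0.21 (-0.39 to -0.02, adjusted p = 0.160). SNAP25, its partner on the plasma membrane, was at 7.13 ± 0.936 CPM and 7.55 ± 1.05 CPM (SD, n = 4 each), with one of 0.08 (-0.20 to 0.36, adjusted p = 0.730). For STX3, of which few reads were matched, the values ran from 0 to 2.40 CPM and the interval from -1.51 to 2.74 (log2 fold change 0.61, adjusted p = 0.738). CPLX1, a complexin that clamps the SNARE complex before calcium enters, was at 1.87, 2.24, 0.871 and 1.69 CPM and 1.35, 0.785, 0.730 and 0.925 CPM. The doxycycline culture was the lower of each pair, the groups overlapped, and the log2 fold change was -0.79 (-1.40 to -0.17, adjusted p = 0.116).

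Of the Rab3 proteins and their effectors, 5 were tested and RAB3D rose. RAB3D (the Rab3 protein of secretory granules in exocrine and other non-neuronal cells; chr19:11322068-11339657) was at 38.1, 36.8, 34.9 and 37.0 CPM in the controls and 49.7, 45.1, 46.0 and 50.2 CPM with doxycycline. The groups did not overlap, and the controls lay close together. The log2 fold change was 0.38 (standard error 0.06, adjusted p = 0.0162). RAB3A, the Rab3 protein of synaptic vesicles, and RAB3B had log2 fold changes of 0.03 (-0.28 to 0.34) and -0.04 (-0.18 to 0.10), with adjusted p-values of 0.925 and 0.752. RIMS1, an active zone scaffold that binds Rab3, had the largest estimated log2 fold change of the list, 1.63, but with an interval from 0.05 to 3.21 at 0 to 1.56 CPM it did not pass (adjusted p = 0.188). The estimate was unstable: it was 2.51 without clone 6, 1.04 without the bulk pair, 0.89 with an offset for effective length and 0.87 with curated transcripts, and in the last 3 of these that of HAP1 was larger.

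The priming and recycling factors held no gene called in the main edgeR fit. UNC13B, which primes docked vesicles, was at 77.3, 74.7, 51.9 and 70.5 CPM in the controls and 91.4, 80.2, 69.7 and 77.5 CPM with doxycycline. It was higher in 4 of 4 pairs and was the 1 of 3 tested priming genes with an unadjusted p under 0.05, with a log2 fold change of 0.23 (0.07 to 0.39, adjusted p = 0.0904), and DESeq2 called none of them. CADPS2 had a log2 fold change of 0.00 (-0.11 to 0.12, adjusted p = 0.981). Of the 3 recycling genes, NSF and NAPB had an unadjusted p under 0.05, as did 3971 of all 15991 genes tested. NAPB was called by DESeq2 with the block, and by edgeR with a filter of 10 reads in every library. NAPB, the neuronal form of the adaptor by which NSF binds SNARE complexes, was at 12.1, 11.6, 11.8 and 9.77 CPM and 15.4, 18.0, 17.0 and 10.9 CPM. It was higher in 4 of 4 pairs, with overlapping groups and a log2 fold change of 0.42 (0.17 to 0.67, adjusted p = 0.0558). NSF, the ATPase itself, had a lower doxycycline value in each of the 4 pairs (log2 fold change -0.17, -0.30 to -0.03, adjusted p = 0.122), and NAPA had one of -0.04 (-0.19 to 0.11, adjusted p = 0.760).

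**Figure D3:**
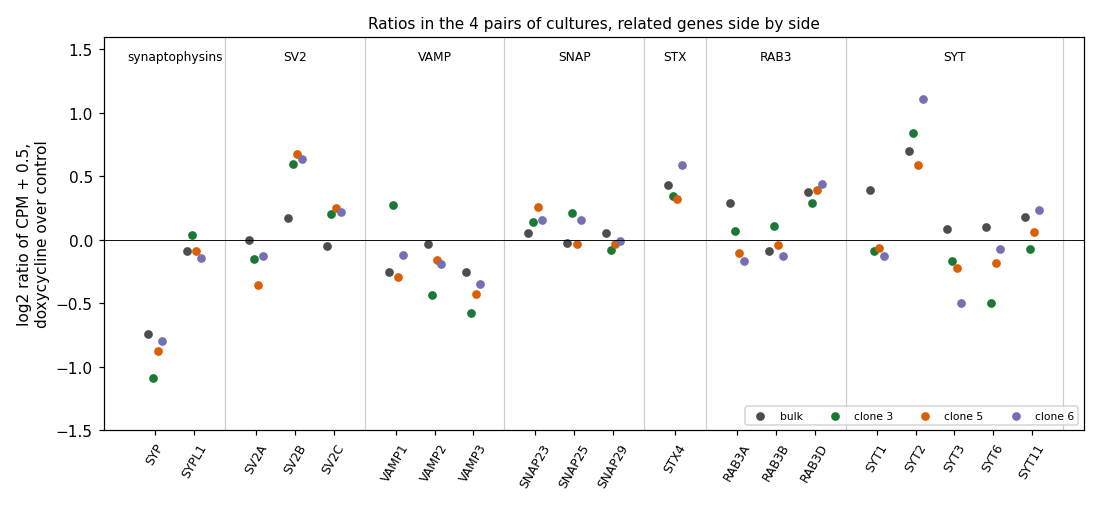
Log2 ratio of CPM (with 0.5 added) of doxycycline over control in each of the 4 pairs of cultures, for related genes side by side; each point is 1 origin. SYP lies below 0 and SYT2, STX4, RAB3D and SV2B above 0 in all 4 pairs, while SYPL1, SYT1, RAB3A, RAB3B and SNAP29 scatter around 0.

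ROGDI and HAP1 are in the list but are not part of the core fusion machinery, and both rose from low levels. ROGDI (a protein of a complex that works with the vacuolar proton pump; chr16:4796968-4802633) was at 1.95, 2.52, 1.89 and 2.33 CPM in the controls and 5.13, 4.13, 3.95 and 4.54 CPM with doxycycline. The groups did not overlap, and the log2 fold change was 1.03 (standard error 0.18, adjusted p = 0.0194), from the 74.3% of its reads that were matched. HAP1 (huntingtin-associated protein, an adaptor in vesicle transport along microtubules; chr17:41717739-41734646) was at 1.72, 1.64, 0.544 and 1.45 CPM and 3.56, 4.01, 4.48 and 2.65 CPM. Its lowest doxycycline value, in clone 6, lay above its highest control value, in the bulk population. The log2 fold change was 1.49 (standard error 0.34, adjusted p = 0.0427). The reads of HAP1 were divided among 5 transcripts, and the share of the leading one ran from 0 to 94.2% between cultures. In edgeR with curated transcripts alone its adjusted p was 0.0922.

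A second comparison asked whether the members differ between the 4 origins, across both treatments. Of the 41 members, 18 were called (edgeR, adjusted p under 0.05), or 43.9%, where 39.4% of all genes were called; the members' share lies near that of all genes. The widest range was that of SV2B, with the values given above: its mean over both treatments (on the log2 scale of CPM + 0.5) in the bulk population was 4.33 times that in clone 3 (adjusted p = 6.40e-04). SYN3 was at 8.43, 2.14, 6.75 and 5.15 CPM in the controls and 8.23, 2.24, 6.31 and 3.95 CPM with doxycycline, and it too was highest in the bulk population and lowest in clone 3, a 3.28-fold range (adjusted p = 0.00239). VAMP1, a vesicle SNARE, was at 11.1, 9.20, 12.6 and 4.10 CPM and 9.21, 11.2, 10.2 and 3.74 CPM. Clone 6 stood below the other origins in both treatments, and the range was 2.69-fold (adjusted p = 0.00448). DOC2B, a calcium-binding regulator of release, was lowest in clone 3 (2.32-fold range, adjusted p = 0.00848), and RPH3A (rabphilin, a Rab3 effector) was highest in clone 3 and lowest in clone 5 (2.10-fold, adjusted p = 0.0399). The 4 fibroblast markers also differed by origin, COL1A1 and COL1A2 most: they summed to 343, 920, 74.7 and 352 TPM in the bulk, clone 3, clone 5 and clone 6 controls and to 389, 914, 114 and 331 TPM with doxycycline. The part of these markers in the differences between origins was not tested. In bulk RNA, fewer cells expressing a gene and less RNA per cell cannot be told apart.

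Other genes of the same pathway were listed by function: 169 genes, of which 139 were tested and 13 were called (10 higher and 3 lower), or 9.35%, near the 7.62% of all genes called by the same rule. By list the share called ran from 0 of 8 exocyst genes to 12.5% of 24 genes for the proton pump and transmitter loading. It was 12.1% of 33 endocytosis genes, 10.9% of 46 active zone and related genes and 3.57% of 28 other SNARE genes. No test of a list against that 7.62% was run. Of 46 tested genes of Munc18 proteins, active zone scaffolds, synaptotagmin-like proteins and further vesicle proteins, 5 were called, all higher. SYTL5, a synaptotagmin-like Rab27 effector, was at 21.8 ± 7.17 CPM in the controls and 38.6 ± 10.4 CPM with doxycycline (SD, n = 4 each; log2 fold change 0.84, adjusted p = 0.00746). SYNPR (synaptoporin, a relative of synaptophysin) was at 10.3 ± 3.98 CPM and 18.6 ± 6.42 CPM, and rose by 0.86 on the log2 scale (adjusted p = 0.00946) where SYP fell. LIN7C, a scaffold of the presynaptic membrane, rose by 0.36 (adjusted p = 0.0149) and RAB3IL1, an exchange factor for Rab3, by 0.41 (adjusted p = 0.0296).

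Of 33 tested endocytosis genes 4 were called: SH3GL3 (an endophilin) rose by 0.50 and CLTB (a clathrin light chain) by 0.35 on the log2 scale, with adjusted p-values of 0.00955 and 0.0458. The log2 fold changes of EPN2 (an epsin) and SYNJ2 (a phosphoinositide phosphatase) were -0.38 and -0.46, with adjusted p-values of 0.0141 and 0.0476. Of 24 tested genes for the proton pump and transmitter loading 3 were called, all parts of the vacuolar proton pump or its assembly. ATP6V0E1 and ATP6V1A rose by 0.50 and 0.25 (adjusted p = 0.0146 and 0.0433), and the log2 fold change of ATP6AP1 was -0.39 (adjusted p = 0.0194). Among 28 other SNARE genes VAMP7, a SNARE of lysosome-related exocytosis, was called (log2 fold change 0.24, adjusted p = 0.0490). Of the 8 exocyst subunits, which tether vesicles to the plasma membrane, edgeR called 0 and DESeq2 with the block called 1. In the edgeR fit with the block 2 had an unadjusted p under 0.05, as did 3971 of all 15991 genes tested. Without the replicate block neither edgeR nor DESeq2 called any of the 139 genes. In edgeR 14 of them had an unadjusted p under 0.05, as did 1155 of all 15991 genes tested.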

How the data were processed

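The authors sequenced poly(A)-selected stranded libraries and ran Salmon against GRCh38 transcripts; for each of the 8 libraries the deposited file gives, per transcript, an estimated count, the effective length (a value in bases) and the TPM. The authors' DESeq2 table served only for its mean signal of normalized counts per gene, to measure how many reads were matched; its fold changes and p-values were not used. Transcripts were matched to gene symbols by RefSeq accession without version (115319 of 158867, 72.6%), and estimated counts were summed per symbol and rounded. Genes were filtered (filterByExpr), scaled by TMM and tested with edgeR 4.0.16 (R 4.3.3, quasi-likelihood test with origin as block, Benjamini-Hochberg over all genes tested). DESeq2 1.42.0 was an alternative. The fits were first run on counts simulated from the fit with the block, so that check cannot test the model itself. The origins pair the cultures: deviations from the group means correlated at 0.406 to 0.590 within an origin and -0.395 to 0.179 between origins. Levels are sums of the deposited TPM; ratios used CPM + 0.5. Named were FEZF1, every called member, 10 core genes, the 5 largest changes not called, the 5 highest levels, the 5 widest ranges between origins and up to 4 called genes of each further list. The widest ranges were taken among members called between origins. NAPB, NSF, UNC13B, SYN2, SV2A, SV2C, RAB3A and RAB3B were named beyond that rule after their values were seen. The members and lists were chosen with earlier results of these data known. Nothing states that cultures of 1 group were independent beyond their origin, so p-values speak only of these cultures. In the fit with the block they measure the spread that remains after origin and treatment. Intervals and the 3-read limit cover sampling of these libraries only.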

Additional observations from a re-analysis of the deposited data

Results flagged for a closer look

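Over 84 groups of 4 cultures (41 members and FEZF1, controls and doxycycline apart), 2 held a culture far from the other 3 by Dixon's ratio (past its 95% limit for 4 values), where chance alone gives about 4.2. Both were the control culture of clone 6. SYN1 was at 2.65 CPM there and at 3.56 to 3.67 CPM in the other controls. SNAP23 was at 176 CPM there and at 142 to 143 CPM in the other controls. Among the doxycycline cultures clone 6 was again the lowest for SYN1 (3.32 CPM) and the highest for SNAP23 (196 CPM). In the edgeR comparison between origins SNAP23 was called (adjusted p = 0.0257) and SYN1 was not (adjusted p = 0.224).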

How the results depend on the processing

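The log2 fold changes of the 8 called members kept their sign in all 95 combinations of gene and alternative setting computed. Of these, 59 also stayed past the threshold. The 8 were chosen by their calls in these same libraries and went 1 way in every pair, so a kept sign adds no support. Without the replicate block, 0 members and 0 of the other pathway genes were called; DESeq2 without the block called 5 and 0, and curated transcripts alone 4 and 6, with 10 members called between origins. Leaving out 1 pair of cultures gave 1 to 4 members and 2 to 9 other pathway genes, with 1.09% to 4.44% of all genes called. Between origins, where the share of all genes was counted in the main fit alone, it gave 9 to 13 members. The remaining alternatives (DESeq2 with the origins in the fit, its size factors, other filters) kept these counts within 1.5 times, as did an offset for effective length, which was not run between origins. Genes that were not called changed sign: SYT11 was at -0.0646 with curated transcripts, and CADPS2 at -0.0113 and -0.0120 with DESeq2 with and without the block, at -0.00962 with its size factors, at -0.000187 with a filter of 1 read in any library and at -0.00534 with 10 reads in every library. When a pair was left out, SYT1 ranged from -0.0973 to 0.0838, STX3 from -0.376 to 1.535, NAPA from -0.0776 to 0.0227 and CADPS2 from -0.0204 to 0.0159. The causes were not tested. The intervals of SYN2 and RIMS1, both low in CPM, were wide, and those of STX3 rest on the few reads matched.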
